A study of Rattus norvegicus with 4 samples.

Results

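The comparison described here is between serum exosomes of rats with severe hepatocellular carcinoma (HCC) at day 49 and serum exosomes of naive rats. Its members were all rat microRNAs (miRNAs) that the scanner software called detected on the severe array, on the naive array or on both. There were 152 of them among the 719 rat miRNAs on the array. All animals were male rats. The naive group had no injection (day 0). For the severe group the labels' protocol has an HCC cell line injected and serum taken, while the design text of the series has 1 dose of tumour exosomes, in rats of a strain it spells baffolo. The same injection applies to the light group (day 35) and the moderate group (day 49), which are used here as further reference points. RNA was extracted from serum exosomes with an SBI kit and hybridised in 1 colour (Cy3) to an Agilent miRNA array. The labelling steps in the labels describe linear amplification of cRNA, an mRNA procedure, and the array type is a miRNA array.

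Each group had 1 array, although the design text speaks of 4 independent experiments with different rats at each time, and the labels do not say whether RNA was pooled. No replicate error or p-value can be given for this reason. Values after ± are standard errors over the replicate spots of an array and cover spot noise only, and the number of arrays limits the precision of every statement. Disease and the 49 days since injection cannot be told apart against naive. In serum, fewer vesicles from a cell type and less of a miRNA per vesicle cannot be told apart either.

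A miRNA is a short RNA that guides silencing complexes to messenger RNAs, which it recognises mainly through its seed, bases 2 to 8 from the 5′ end. The precursor is a hairpin with a 5p and a 3p arm, and either arm may become the mature miRNA while the other is usually degraded. Exosomes are small vesicles that carry a part of the miRNA content of blood, shed by blood cells, vessel wall, liver and, where present, tumour. HCC is the main primary cancer of the liver, an organ whose cells are defined among miRNAs by miR-122.

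The sequences below are those the comparison turns on, from RefSeq (GRCr8), written 5′ to 3′ with the seed in capitals. The first set holds miRNAs that stood higher on the severe array than on the naive array, several of them with a run of G.

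miR-652-5p: aCAACCCUaggagggggugccau

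miR-188-5p: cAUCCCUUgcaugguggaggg

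miR-483-5p: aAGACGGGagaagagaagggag

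miR-494-3p: uGAAACAUacacgggaaaccucu

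miR-10a-5p: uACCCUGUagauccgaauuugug

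miR-211-3p: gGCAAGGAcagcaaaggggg

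miR-290: uCUCAAACuaugggggca

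miR-3593-3p: cUUCAACCuuaagggggccuca

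miR-370-3p: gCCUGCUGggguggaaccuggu

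miR-1224: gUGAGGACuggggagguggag

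The second set holds miRNAs that stood lower. It includes miR-652-3p, the other arm of the miR-652 precursor, and let-7 members with a common seed.

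miR-133b-3p: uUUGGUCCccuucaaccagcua

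miR-423-5p: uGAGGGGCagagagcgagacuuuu

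miR-652-3p: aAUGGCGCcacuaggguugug

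let-7a-5p: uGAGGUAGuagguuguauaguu

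let-7c-5p: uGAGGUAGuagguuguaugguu

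let-7i-5p: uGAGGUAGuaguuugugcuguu

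A further set holds close relatives that differed from each other in this comparison, shown so that their few base differences can be seen.

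miR-103-3p: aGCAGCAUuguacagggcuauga

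miR-107-3p: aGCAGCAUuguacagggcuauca

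miR-130a-3p: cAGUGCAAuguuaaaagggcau

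miR-130b-3p: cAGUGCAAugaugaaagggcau

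miR-192-5p: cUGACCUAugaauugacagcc

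miR-215: aUGACCUAugauuugacagaca

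Signals are given as a percentage of the array's reference level, which is the 75th percentile among the 111 miRNAs that all 4 arrays detected (666 intensity units on the naive array and 415 on the severe array). A miRNA was counted as measured where it was detected and reached the array's floor, 15.6 units on naive and 16 on severe. By that rule 109 members were measured on both arrays, 10 on the severe array alone, 18 on the naive array alone and 15 on neither. Where 4 values stand in a row they are those of naive, light, moderate and severe. Differences are log2 of severe over naive, so a positive value means higher on the severe array. With 1 array a side, a miRNA was called higher or lower where it differed by at least 2-fold.

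Of the 109 miRNAs measured on both arrays, 24 (22.0%) passed 2-fold upward on the severe array and 21 (19.3%) downward, 41.3% in all. A further 44 lay within 1.5-fold. The median difference was −0.11, and the quartiles were −0.74 and 0.79. Past 4-fold the sides were uneven at this scaling, with 13 higher and 3 lower. For comparison, on the light array 1.71% of measured miRNAs were at least 2-fold higher than naive and 0.855% lower, and on the moderate array 6.35% and 0.794%. These comparisons share the naive array. Spot noise was small against the calls: the smallest called difference was 9.04 times its standard error over spots. The split of higher and lower depended on the scaling and background correction, with 17 higher and 42 lower without scaling, where the median moved to −0.79, and 14 and 5 with normexp, a background model that adds a fixed offset to every spot. The excess of rises past 4-fold also turned without scaling. There all of the 15 largest falls passed 4-fold, at a log2 of −2.06 or lower. Of the rises only miR-652-5p, miR-188-5p, miR-483-5p and miR-494-3p did.

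**Figure D1:**
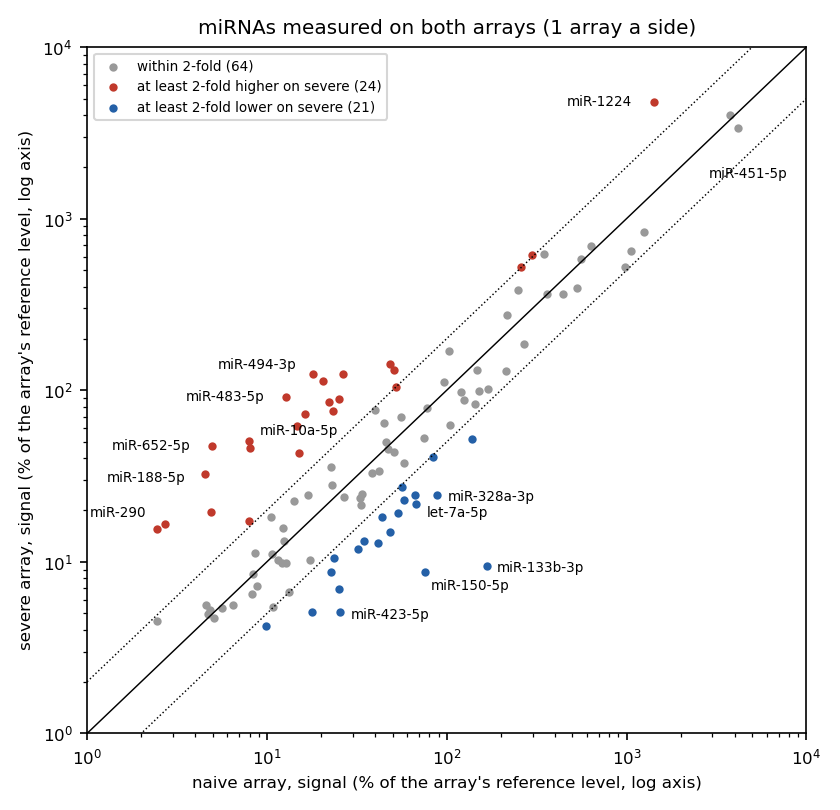
Signal of each miRNA measured on both arrays, naive (horizontal) against severe (vertical), as a percentage of the array's reference level on log axes. Each point is 1 miRNA on 1 array a side, the solid line marks equal signal and the dotted lines 2-fold; red points (24) lie above the upper dotted line, blue points (21) below the lower one and grey points (64) between.

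Calls were spread over the range of brightness in different ways. Among the 37 dimmest of the measured miRNAs 8 were higher and 7 lower, among the next 36 the counts were 9 and 12, and among the 36 brightest they were 7 and 2. The brightest miRNA of the severe array, miR-1224, was among those higher. It is a mirtron, a miRNA cut from a short intron by splicing. Its signal was 1427% of the reference level on naive, 1736% on light, 1022% on moderate and 4775% on severe, which was 3.35-fold above naive (log2 1.74 ± 0.01). miR-877, also a mirtron, stood at 23.2%, 16.8%, 26.4% and 76.1%, 3.28-fold above naive. For both mirtrons the severe array was the highest of the 4.

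The largest rise was that of miR-652-5p, which read 4.94% on naive, 4.34% on light, 4.27% on moderate and 47.5% on severe, 9.61-fold above naive (log2 3.27 ± 0.05). Only the severe array was high, and the other 3 lay within a narrow band. miR-188-5p, whose gene sits in the X-linked Clcn5 locus, behaved in the same way, with 4.52%, 4.21%, 4.93% and 32.5% (7.20-fold). miR-193-3p read 2.46%, 1.72%, 4.06% and 15.6% (6.35-fold), and miR-290, known from the miRNA cluster of rodent embryonic stem cells, 2.71%, 4.43%, 3.54% and 16.7% (6.17-fold). These last 2 started from signals near the floor, and with normexp both stayed under 2-fold. The fold of miR-290 is uncertain, since it sums probes that were each under the floor on at least 1 of the arrays. miR-188-5p and miR-290 were not detected on the light array, where their values are readings under the detection call.

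Among miRNAs of imprinted loci, miR-483-5p, hosted by the growth factor gene Igf2, read 12.8%, 15%, 16.8% and 90.9% (7.10-fold, log2 2.83 ± 0.04). miR-494-3p, of the Dlk1-Dio3 locus, read 18.1%, 25.7%, 20.2% and 125% (6.89-fold, log2 2.78 ± 0.02). miR-370-3p, of the same locus, read 22.0%, 19.9%, 22.0% and 85.5% (3.88-fold, log2 1.95 ± 0.02). In each of these 3 the severe array stood alone at the top, well above the highest of the other arrays.

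Of the next 3 rises, miR-10a-5p and miR-212-3p were also past 2-fold on the moderate array, and miR-99a-5p was not. miR-10a-5p, encoded in the Hoxb cluster, read 7.99% on naive, 6.39% on light, 17.5% on moderate and 50.5% on severe (6.33-fold, log2 2.66 ± 0.02). miR-99a-5p read 8.07%, 5.41%, 11.2% and 45.8% (5.68-fold, log2 2.51 ± 0.03). miR-212-3p, a miRNA induced by the transcription factor CREB, read 4.89%, 4.46%, 11% and 19.6% (4.01-fold). The moderate array lay between naive and severe in these 3, at log2 1.13, 0.47 and 1.17 above naive for miR-10a-5p, miR-99a-5p and miR-212-3p. With normexp miR-212-3p stayed under 2-fold, at 0.83.

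The following rises were within 2-fold of naive on the moderate array. miR-211-3p, from an intron of the melanocyte gene Trpm1, read 20.6%, 35.3%, 18.4% and 113% (5.47-fold). miR-125a-3p read 16.2%, 14.4%, 13.5% and 72.2% (4.46-fold), and miR-3593-3p 14.7%, 15.7%, 9.68% and 61.8% (4.21-fold). miR-130b-3p, reported as raised in HCC, read 26.6%, 46.1%, 37.0% and 125% (4.70-fold, log2 2.23 ± 0.03). miR-144-3p, a red-cell miRNA under control of GATA-1, differed from this pattern: it read 25.3%, 65.7%, 22.2% and 89.4% (3.53-fold), so the light array was also high.

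Among the smaller rises were miRNAs known from liver and HCC. miR-192-5p, abundant in gut and liver, read 48.2%, 42.4%, 48.6% and 142% (2.94-fold, log2 1.56 ± 0.02). miR-21-5p, raised in many tumours, read 296%, 500%, 385% and 614% (2.08-fold, log2 1.06 ± 0.02), so the severe array was highest but the light array was nearer to it than to naive. miR-29c-3p, a regulator of collagen genes, read 50.7%, 64.6%, 78.4% and 132% (2.61-fold). The last called rise was miR-130a-3p at 2.01-fold, and miR-27b-3p, at log2 0.93, lay just short of the threshold.

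**Figure D2:**
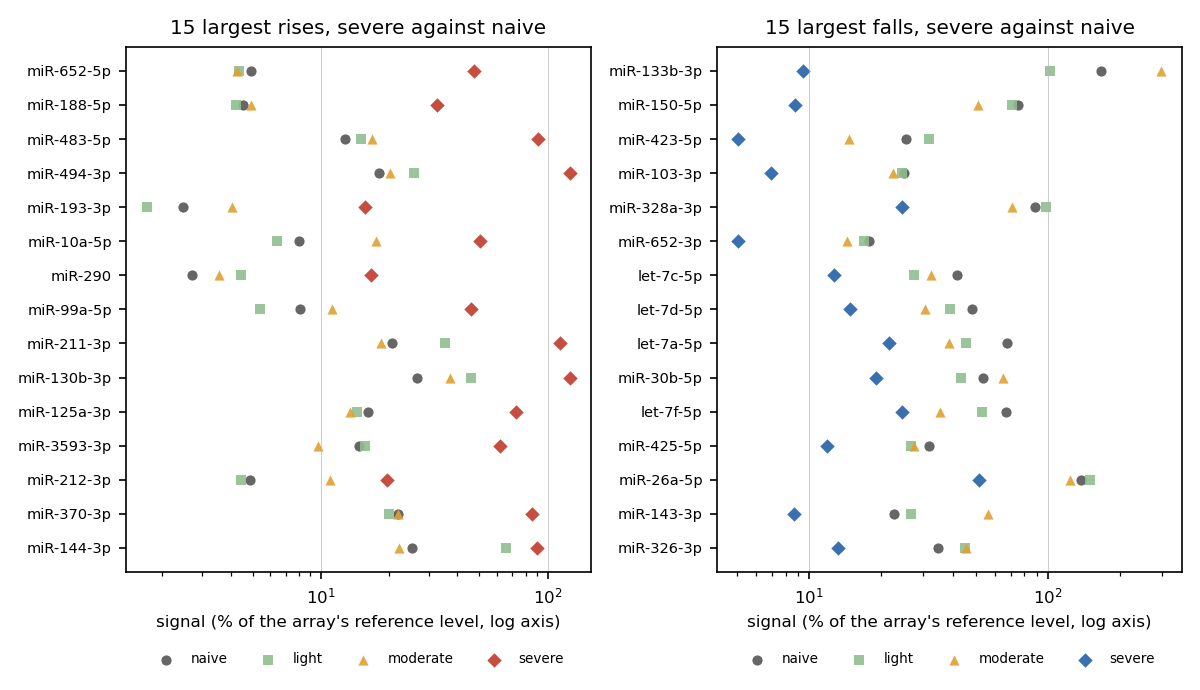
Signals of the 15 miRNAs with the largest rises (left) and the 15 with the largest falls (right) on each of the 4 arrays, as a percentage of the array's reference level on a log axis. Each symbol is 1 array; the severe array lies beyond the other 3 in every line, and miR-144-3p (light array) and miR-212-3p (moderate array) are the rises in which another array came nearest.

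The largest fall was miR-133b-3p, which belongs to heart and skeletal muscle. It read 167% on naive, 102% on light, 297% on moderate and 9.48% on severe, 17.6-fold below naive (log2 −4.14 ± 0.05). The severe array alone was low, and the moderate array of the same day was the highest of the 4. miR-150-5p, the main miRNA of mature lymphocytes, read 75.4%, 70.8%, 51.0% and 8.75% (8.62-fold lower, log2 −3.11 ± 0.05). miR-423-5p, found in most cells, read 25.5%, 31.9%, 14.7% and 5.08% (5.02-fold lower, log2 −2.33 ± 0.06). The 5.08% of miR-423-5p lies near the floor, and its difference came to −0.54 with normexp. Its 1 probe measured on both arrays gave −1.44, so the 5.02-fold rests in part on a probe that was not.

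miR-103-3p, a widely expressed miRNA tied to lipid and insulin metabolism, read 25.1%, 24.6%, 22.6% and 6.96% (3.60-fold lower). miR-328a-3p read 88.6%, 98.0%, 71.2% and 24.6% (3.60-fold lower), and miR-652-3p 17.9%, 17.0%, 14.5% and 5.08% (3.53-fold lower). In all 3 the naive, light and moderate arrays lay close together and the severe array was below them. miR-26a-5p, a miRNA reported as lowered in HCC, read 138%, 151%, 124% and 51.8% (2.66-fold lower), and miR-26b-5p 83.6%, 93.0%, 98.9% and 41.0% (2.04-fold lower). miR-143-3p, of smooth muscle, read 22.7%, 26.7%, 56.3% and 8.70% (2.61-fold lower), so it was highest on the moderate array, as miR-133b-3p was. miR-326-3p read 34.6%, 45.0%, 45.6% and 13.3% (2.60-fold lower), and miR-425-5p 32.0%, 26.8%, 27.5% and 11.9% (2.69-fold lower). Of the falls in this paragraph, those of miR-103-3p (−0.45), miR-652-3p (−0.27), miR-143-3p (−0.32), miR-326-3p (−0.52) and miR-425-5p (−0.48) were under 2-fold with normexp, as log2 differences.

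The let-7 family, regulators of differentiation that repress RAS and MYC among other genes, was called lower in 5 of its 6 measured members. let-7a-5p read 67.7%, 45.7%, 38.5% and 21.6% (3.14-fold lower). let-7f-5p read 67.0%, 52.9%, 35.5% and 24.6% (2.72-fold lower), and let-7d-5p 48.2%, 39%, 30.6% and 14.9% (3.23-fold lower). For these 3 members the scaled signal was highest on naive and dropped at each step to light, moderate and severe. let-7c-5p, at 41.6%, 27.7%, 32.5% and 12.8% (3.26-fold lower), and let-7b-5p, at 43.6%, 33.4%, 38.3% and 18.2% (2.40-fold lower), had the light and moderate arrays in the other order. The steps depended on the scaling. In unscaled units let-7a-5p read 451, 163, 368 and 89.6, let-7f-5p 447, 188, 339 and 102, and let-7d-5p 321, 139, 292 and 61.9. There the moderate array lay above the light array, and the severe array was still the lowest. let-7i-5p differed by −0.74 and was not called. Summed over the 8 members on the array, let-7 signal was 375%, 337%, 290% and 155% of the reference level, and 2495, 1200, 2770 and 644 units unscaled. The probes of let-7 members may each bind several of them, since the sequences are almost the same, which leaves the values of single members uncertain. With normexp let-7a-5p, let-7f-5p, let-7c-5p and let-7d-5p stayed below naive but under 2-fold, between −0.95 and −0.70.

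Bounds are given for miRNAs measured on 1 array alone, as at least N-fold against the floor or the miRNA's own signal on the other array, whichever was higher. With them, 33 of 137 miRNAs measured on either array (24.1%) were higher and 25 (18.2%) lower. Of the 10 measured on the severe array alone, 9 were at least 2-fold higher. All of these 9 but miR-770-3p were detected on severe and not on naive, so their direction was fixed by the choice of members. miR-150-3p was at least 5.87-fold higher, with 20 of 20 spots well above background on the severe array and 0 of 20 on naive. miR-1249 was at least 4.69-fold higher with 18 of 20 spots, and the others called had 5 to 10 of 20. They included miR-675-3p, cut from the imprinted H19 transcript (at least 3.97-fold), miR-144-5p (3.91-fold), miR-296-5p, from the imprinted Gnas locus (3.30-fold), miR-770-3p (3.19-fold), miR-183-5p (3.13-fold) and miR-134-5p (2.83-fold). miR-92b-3p, named in the series title, was at least 25.2-fold higher, at 59.3% of the reference level on severe against background-level readings of −4.56%, −6.52% and −2.58% on naive, light and moderate. That signal rested on 2 of its 4 probes.

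The 18 miRNAs measured on the naive array alone were mostly dim. For 14 of them the bound was under 2-fold. miR-1-3p, the other main miRNA of heart and skeletal muscle, was at least 5.08-fold lower on severe, with 20 of 20 spots well above background on naive and 0 of 20 on severe. It read 19.6% on naive, 16.1% on light, 56.5% on moderate and 0.549% on severe, the same order of arrays at the top and bottom as miR-133b-3p. miR-215 was at least 3.96-fold lower, miR-181c-5p, of lymphocytes, at least 2.65-fold, and miR-199a-3p, of fibroblasts and vessel wall, at least 2.16-fold. miR-1-3p and miR-181c-5p were not detected on severe, so their direction was fixed by the choice of members.

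Both arms of a precursor could be followed in 9 cases. The arms had opposite signs in 5 of them and the same sign in 4. In miR-142 and miR-324 the 3p arm lay near 0, at 0.03 and 0.05, and the opposite cases numbered 3 without scaling, with the brightest probe and when the scale was taken from miRNAs of the naive and severe arrays alone. In 3 of the 5 opposite cases both arms passed 2-fold: miR-652, miR-328a and miR-150. However, miR-150-3p was detected on severe and not on naive, and miR-324-5p on naive and not on severe. The directions of these arms of miR-150 and miR-324 were fixed by the choice of members. The ratio of 5p to 3p signal within an array does not depend on the scaling, although its value depends on the probes, so only its change between arrays is read here. For miR-652 the ratio was 0.275 on naive, 0.256 on light, 0.294 on moderate and 9.35 on severe, a 34.0-fold change. For miR-328a it was 0.169, 0.142, 0.198 and 1.75, a 10.4-fold change. In both, the naive, light and moderate arrays lay close together and the severe array stood apart from them. The ratio does depend on the background, since miR-652-3p read 21.1 units on severe, near the floor of 16. Each arm of miR-652 had 1 probe measured on both arrays. Over the settings tried, the log2 rise of miR-652-5p came down to 1.47 and the fall of miR-652-3p to −0.27. The size of the 34.0-fold change is uncertain for this reason.

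For miR-150 the 5p arm was lower and the 3p arm higher as a bound. Where both arms could be measured the ratio stood at 25 for moderate and 0.634 for severe. The ratios of other precursors moved less. That of miR-140 was 0.306, 0.345, 0.354 and 0.376, and that of let-7d, whose arms were both lower, was 4.89, 2.25, 4.63 and 3.52. miR-142, of blood cells, had 0.430, 0.413, 0.885 and 0.271, so its largest distance from naive was in the moderate sample. Both arms of miR-144 were higher, the 5p arm as a bound and detected on severe but not on naive.

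**Figure D3:**
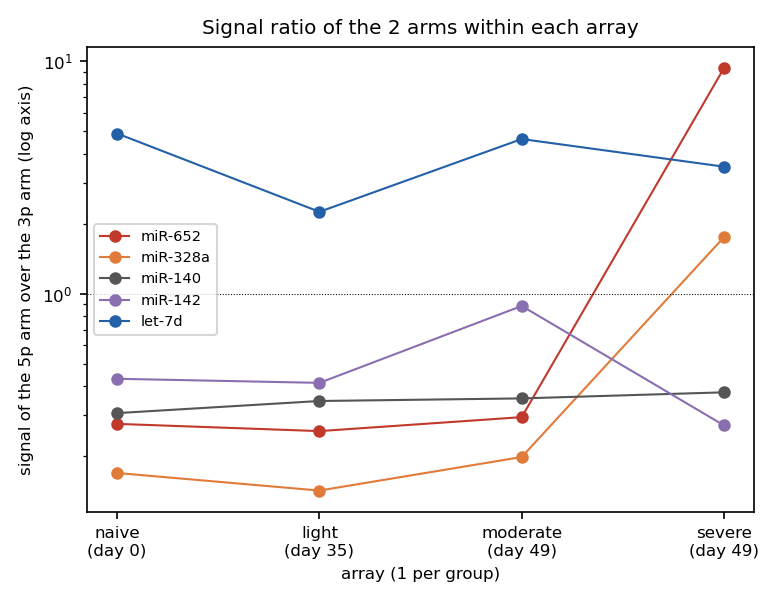
Ratio of 5p to 3p signal within each array for the 5 precursors whose arms were both measured on all 4 arrays, on a log axis. Each point is 1 array, lines join points of a precursor and do not stand for a time course; the ratio of miR-652 lies between 0.256 and 0.294 on the first 3 arrays and at 9.35 on the severe array, while that of miR-140 stays between 0.306 and 0.376.

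miRNAs that share a seed can bind the same targets, and their sequences were compared next. A sequence was found for 139 of the 152 members, and 13 seeds had more than 1 member measured on both arrays, covering 36 miRNAs. In 9 of the 13 the members lay within 1 log2 unit of each other, and the median range was 0.86. miR-27a-3p and miR-27b-3p stood at 0.84 and 0.93, miR-26a-5p and miR-26b-5p at −1.41 and −1.03, and the 5 miRNAs with the seed of miR-17-5p had a median of −0.54.

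The other 4 seeds ranged over more than 1 log2 unit. miR-103-3p and miR-107-3p have the same seed and differ at a single base, G22C, counted from the 5′ end with the base of miR-103-3p first. miR-103-3p was lower (−1.85 ± 0.08), while miR-107-3p read 55.9%, 81.4%, 73.4% and 70.0% (0.32 ± 0.03). The gap was 2.17 log2 units, or 4.52-fold. miR-130a-3p and miR-130b-3p, which differ by U11A and A13G, were both higher but 2.01-fold and 4.70-fold. Among miRNAs measured on both arrays, 22 pairs had equal length and at most 3 differing bases. The gap was within 0.5 in 18 of the pairs and over 1 in the 2 just named. miR-133a-3p, which differs from miR-133b-3p only at the last base, was not measured on naive or severe and is not among the pairs. It read 0.999% on naive, where miR-133b-3p read 167%. miR-29c-3p was higher (1.39), while miR-29a-3p and miR-29b-3p stood at 0.63 and 0.11. With the seed AGCAGCA, miR-16-5p stood at −0.71, miR-15b-5p at 0.34 and miR-497-5p at 0.39. The seed UGACCUA was the only one with members called in both directions, with miR-192-5p 2.94-fold higher and miR-215 at least 3.96-fold lower. miR-10a-5p and miR-10b-5p, Hox-cluster relatives, also parted: miR-10b-5p read 4.81%, 5.15%, 11.2% and 5.22% (0.12 ± 0.08), so it was raised in the moderate sample and near naive in the severe one. How far each probe tells such near-identical miRNAs apart was not tested.

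Neighbouring miRNA genes are often transcribed together. RefSeq genes (GRCr8) within 10000 bases of each other formed 22 groups among the miRNAs measured on either array. In 8 groups there were only lower calls, in 3 only higher ones, in 10 none, and in 1 both. That group was Mir99a with Mirlet7c1, where miR-99a-5p was higher (2.51) and let-7c-5p lower (−1.71). let-7c-5p is also made from another locus, beside Mirlet7b. The neighbours of miR-188-5p (2.85) stood at 0.88 (miR-362-3p) and 0.79 (miR-500-3p). miR-425-5p was lower (−1.43) while miR-191a-3p stood at 0.28, and miR-30b-5p was lower (−1.48) while miR-30d-5p stood at −0.04. The 6 genes of the miR-17-92 cluster had a median of −0.48 with 1 lower call, miR-18a-5p (−1.06).

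The members were also read by list, with counts that include bounds. These lists were chosen with earlier results of these data known. Over all miRNAs measured on either array, 24.1% were higher and 18.2% lower. Both shares include bounds whose direction was fixed by the choice of members. The let-7 list had 0 higher and 5 lower of 6 members, with a median of −1.55 (between −2.23 and −0.73 over all settings tried). The list of the imprinted Dlk1-Dio3 locus had 43 miRNAs on the array, of which 4 were members: miR-494-3p, miR-370-3p, miR-134-5p and miR-770-3p. All 4 were higher, but miR-134-5p was detected on the severe array and not on naive and so was a member only through the array where it is high, and miR-770-3p was measured on the severe array alone. The summed signal of the list was 42.2%, 46.8%, 45.5% and 227% from naive to severe. The rest of the list was detected on neither of these arrays, naive and severe. The list does not hold every miRNA of the locus. It has miR-300-3p but not the other arm, miR-300-5p, which was detected on naive and not on severe. That arm was under the floor on both. For Igf2 and H19, 2 of 4 miRNAs were members and both were higher, with sums of 14.0%, 17.2%, 18.2% and 103%. miR-675-3p was detected on the severe array and not on naive, so its direction was fixed by the choice of members.

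The list of miRNAs reported as raised in HCC had 9 members, of which 4 were higher (miR-21-5p, miR-130b-3p, miR-92b-3p and miR-183-5p) and 1 lower (miR-18a-5p), with a median of 0.24. miR-92b-3p and miR-183-5p, detected on the severe array and not on naive, had to be higher by the choice of members. Of those reported as lowered in HCC 11 were members, with 1 higher (miR-29c-3p) and 2 lower (miR-26a-5p and miR-199a-3p), and a median of −0.01. The median of the first lay between −0.44 and 0.40 over the settings and that of the second between −0.84 and 0.09, so neither had a fixed sign. In the miR-26, miR-29 and miR-30 families 4 of 10 members were lower and 1 higher. The miR-23, miR-24 and miR-27 clusters had 0 calls among 5 members, with a median of 0.53 (between −0.15 and 0.69).

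**Figure D4:**
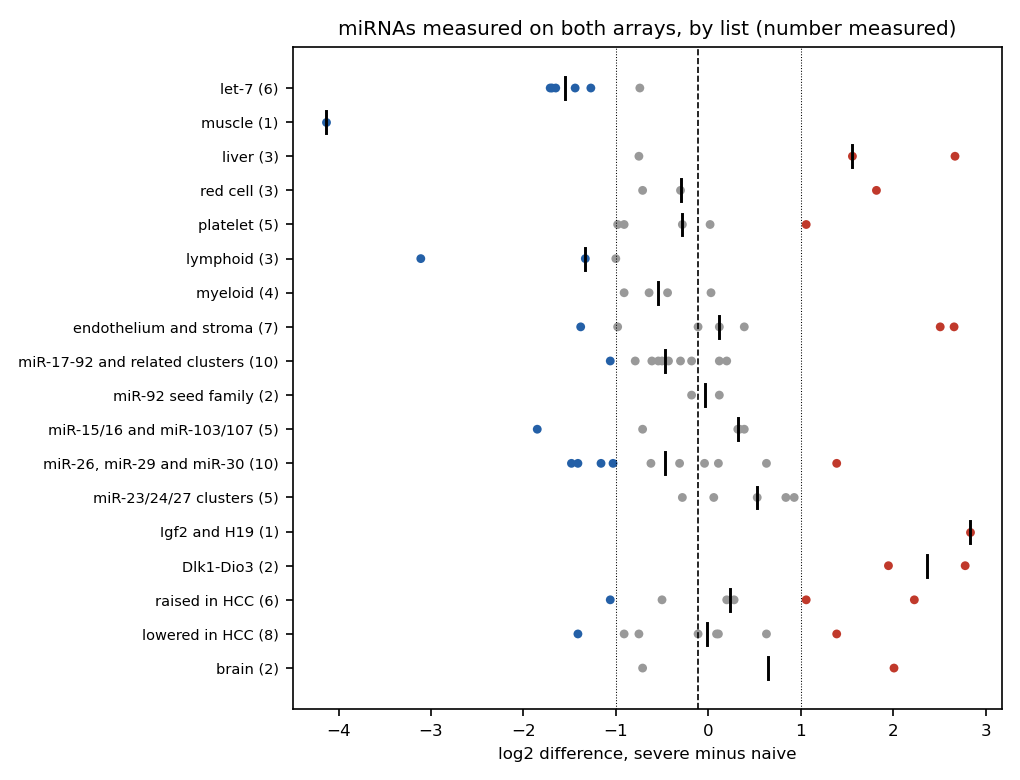
Log2 difference, severe minus naive, of every miRNA measured on both arrays, by list, with the number measured in brackets. Red points are at least 2-fold higher, blue at least 2-fold lower and grey within 2-fold; the black bar is the median of the list, the dashed line the median of all 109 miRNAs (−0.11) and the dotted lines 2-fold. miRNAs with a bound are not drawn, and a miRNA can be in more than 1 list.

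Some lists of cell type markers held calls and others held few or none, and their part in the results was not tested. For muscle, 3 of the 7 miRNAs on the array were members, and the summed level was 189% on naive, 118% on light, 363% on moderate and 10% on severe. Both called members, miR-133b-3p and miR-1-3p, were lower, and miR-133a-3p was not measured on either array. As miR-1-3p was detected on naive and not on severe, its direction was fixed by the choice of members. The lymphoid list had 7 members of 8, with 3 lower (miR-150-5p, miR-342-3p and miR-181c-5p) and 1 higher (miR-150-3p), and sums of 167%, 177%, 140% and 55.8%. Of these, miR-150-3p was detected on severe and not on naive, and miR-181c-5p on naive and not on severe. The directions of miR-150-3p and miR-181c-5p were fixed by the choice of members. In the myeloid list, 5 of 5 were members and 0 were called, with sums of 1132%, 1618%, 1657% and 648%. miR-223-3p, its defining miRNA, read 981%, 1371%, 1522% and 521% (−0.91), and miR-142-3p stood at 0.03.

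Red-cell miRNAs made up much of the signal on every array. Their list had sums of 5257%, 6792%, 5783% and 4140%, with 3 higher (miR-144-3p, miR-144-5p and miR-183-5p, the last pair detected on severe and not on naive) and 0 lower among 5 members of 7. Of its other members miR-451-5p, which defines the list, stood at −0.30, and −0.71 was the difference of miR-16-5p. The platelet list had 1 call among 7 members, the rise of miR-21-5p, with miR-126a-3p at −0.98, and sums of 2095%, 2955%, 2971% and 1874%. In the liver list, 2 of 5 members were higher (miR-192-5p and miR-193-3p) and 1 lower (miR-215), with sums of 238%, 111%, 180% and 265%. The defining miR-122-5p was not called: it read 169%, 37.2%, 101% and 101% (−0.75), so it was lowest on the light array and, as scaled, equal on both arrays of day 49. In unscaled units it read 1123, 132, 964 and 417, so the equality depended on the scaling.

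The endothelial and stromal list had 10 members of 14, with 2 higher (miR-10a-5p and miR-99a-5p) and 2 lower (miR-143-3p and miR-199a-3p), and sums of 85.7%, 82.9%, 173% and 136%. Of the brain list, 2 of 8 were members, and miR-212-3p was called higher while miR-128-3p stood at −0.71. The brain-defining miR-124-3p and miR-9a-5p were not detected on the naive or severe array. The epithelial list, with the miR-200 family, and the pancreatic list, with miR-375-3p, had 0 members, and their sums on the severe array were 0.982% and 0.0848%.

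Base composition, which the choice of members did not use, differed between the groups of calls. The median share of G plus C was 54.5% in the 21 higher miRNAs with a sequence, 45.5% in the 18 lower ones and 45.5% in the 58 within 2-fold, against 47.6% over 641 array miRNAs. In the 9 measured on the severe array alone it was 59.1%, and in the 18 on naive alone 45.5%. The median share of U was 22.2%, 27.9% and 27.3% in the higher, lower and within 2-fold groups. Of the 32 measured miRNAs with the least U, 13 were higher and 4 lower, and of the 33 with the most U, 4 were higher and 8 lower. Across the 97 miRNAs, which share both arrays, the difference correlated with U at Pearson r −0.36 (Spearman rho −0.32) and with G plus C at 0.24 (0.21). With length it was −0.28 (−0.28), with G alone 0.17 (0.05), with C alone 0.05 (0.17) and with A 0.11 (0.09). These values are weak and describe miRNAs that are not independent. The level on each array related little to U, with r of 0.02, 0.02, −0.02 and −0.18 over 94 miRNAs, from naive to severe.

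Runs of G stood out among the sequences of the rises, a motif picked after the values were seen. GGGG, read on the miRNA strand, occurs in 36 of the 641 array miRNAs with a sequence (5.62%) and in 10 members. Of the 9 of these measured on both arrays, 7 were higher: miR-652-5p, miR-290, miR-211-3p, miR-3593-3p, miR-370-3p, miR-1224 and miR-327. miR-423-5p was lower and miR-361-5p was within 2-fold. Their median was 1.95, against −0.22 for the 88 without the run, of which 14 were higher and 17 lower. As the sequences above show, the run lies in the 3′ part of miR-652-5p, miR-211-3p and miR-290, and it overlaps the seed in miR-370-3p, which was higher, and in miR-423-5p, which was lower. The run also overlaps the seed in miR-327, not shown above, which was higher.

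**Figure D5:**
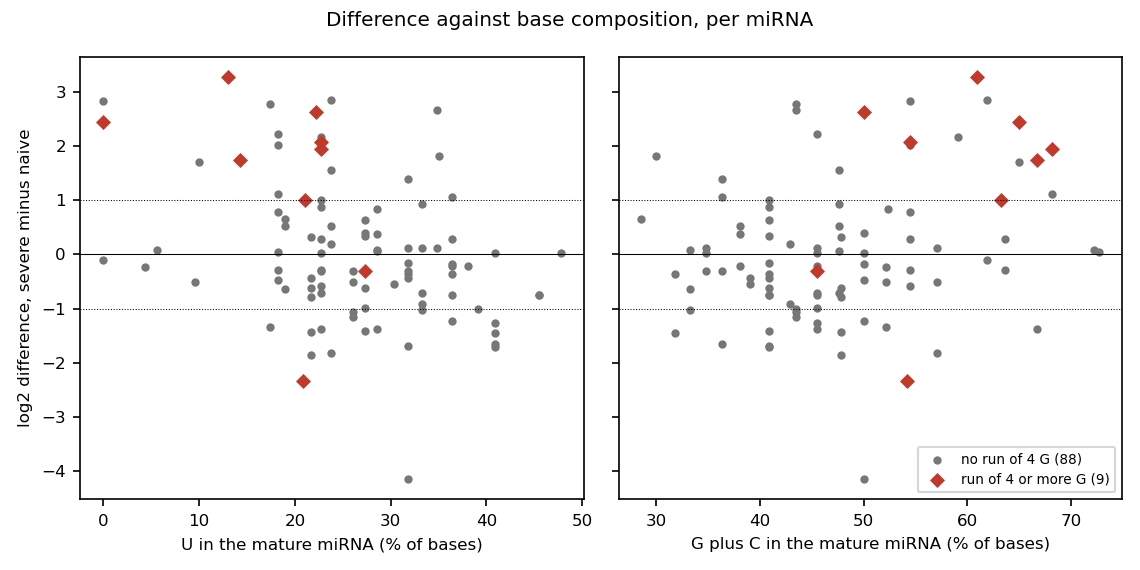
Log2 difference, severe minus naive, of the 97 miRNAs measured on both arrays with a sequence, against the share of U (left) and of G plus C (right) in the mature miRNA. Each point is 1 miRNA, diamonds mark the 9 with a run of 4 or more G and dotted lines 2-fold; 7 of the diamonds lie at or above the upper dotted line.

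The severe array was next set against all the other 3 at once. Among the 104 miRNAs measured on all 4 arrays, the severe array stood at least 2-fold above all the other 3 in 16 (15.4%) and at least 2-fold below them in 16 (15.4%). The same counts were 0 and 0 for naive, 0 and 1 for light (miR-122-5p, below, 0.962%) and 2 and 0 for moderate (miR-10b-5p and miR-143-3p, above, 1.92%). Of the 21 rises measured on all 4 arrays 16 stood apart in this way, and of the 21 falls also 16. The rises that did not were miR-144-3p, miR-212-3p, miR-21-5p, miR-29c-3p and miR-130a-3p. The falls that did not were let-7a-5p, let-7b-5p, let-7f-5p, let-7d-3p and miR-30c-5p. The counts of 16 above and 16 below became 5 and 3 with normexp. There were also 7 above without scaling, 5 below with the spike-ins as the scale and 9 below with detection by spots.

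The probes of a miRNA bind the same RNA and were compared with each other. Of 71 measured miRNAs with more than 1 measured probe, all probes had the same sign in 64. Among those called, 24 had more than 1 measured probe. In all 24 the probes had the same sign, and in 21 every probe passed 2-fold. A further 19 calls rested on 1 measured probe, and 2, miR-290 and let-7d-3p, on sums of probes that were each under the floor on at least 1 of the arrays. The 19 include many of the largest rises: miR-652-5p, miR-188-5p, miR-494-3p, miR-193-3p, miR-10a-5p and miR-99a-5p. They also include the falls past 4-fold, miR-133b-3p, miR-150-5p and miR-423-5p. miR-483-5p, another large rise, had 2 measured probes. The severe array differed from the others in technical readings as well: 525 spots were marked as outliers, against 386 or 387 on the other arrays. Its spike-ins gave 0.788 times (dmr_285) and 0.488 times (dmr_31a) the naive signal, against 1.05 and 0.963 times on light and 0.945 and 0.840 times on moderate. The part of these readings in the results was not tested. With the spike-ins as the scale, 24 miRNAs were higher and 21 lower, as with the reference level, and with outlier spots kept 23 and 23.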

How the data were processed

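The members and lists were chosen with earlier results of these data known. Spot intensity values were deposited by the authors after background subtraction with spatial detrending, unscaled between arrays, by Agilent Feature Extraction 10.7.3.1 per the file headers; the submitters' processing notes name version 9.1. Non-outlier spots were averaged per probe and summed per miRNA. Each array's sums were scaled to their 75th percentile among the 111 miRNAs that all 4 arrays detected, then put on the log2 scale. Outlier spots numbered 386, 387, 386 and 525 of 14380, from naive to severe, and 0 were saturated. The floor was the lowest probe mean among probes for which a share of 0.5 or more of the spots was well above background. A single-probe floor against a sum over probes makes a bound not strict.

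Named miRNAs were the 15 largest rises and the 15 largest falls whose sign was the same by the total signal of the scanner software, up to 8 measured on each array alone by bound, the 10 brightest of each array, the other arms of these, and list members. miRNAs named for seeds, neighbouring genes, runs of G or closeness to the threshold were chosen after their values were seen. List names were matched to array names, 166 of 169, and miR-486, miR-155-5p and miR-219a-5p had no match. RefSeq (GRCr8) supplied sequences and gene neighbours; the files use rn4, so no coordinates are given. Sequences of miR-150-3p, miR-150-5p, miR-151-5p, miR-193-3p, miR-301a-3p, miR-30b-5p, miR-30d-5p, miR-320-3p, miR-328a-3p, miR-328a-5p, miR-378b, miR-466b-1-3p and miR-99a-5p were not used here. The calculation was tested on simulated data. Alternatives covered scaling, value per miRNA, background (normexp in limma 3.58.1, R 4.3.3), outlier spots, detection, floor and threshold. Python 3.11.15, pandas 2.3.3, numpy 2.4.6 and matplotlib 3.10.9 were used.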

Additional observations from a re-analysis of the deposited data

How the results depend on the processing

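All 30 of the largest rises and falls kept their direction under every setting that gave a value. That was largely fixed by their choice as the largest differences, with the same sign required in the total gene signal. Of the 30, 14 came under 2-fold with normexp, whose offset of 50 lowers folds by construction. With normexp there were 14 higher and 5 lower miRNAs (15 and 5 with bounds), a median of 0.14, and 5 miRNAs above and 3 below on the severe array against all the others. Higher miRNAs made up 53.3% of those called, 73.7% with normexp and 28.8% without scaling. Without scaling 42 were lower (53 with bounds), the median was −0.79, 7 stood above on the severe array and 3 arm pairs were opposite. Arm pairs with opposite directions also numbered 3 with the brightest probe (median −0.25) and with scaling over miRNAs detected on both arrays (median −0.26). The median was −0.17 with quantile normalization, −0.27 with the total gene signal (41 lower with bounds), 0.01 with detection by spots (9 below on the severe array) and −0.04 in the deposited value table. Spike-in scaling left 5 below on the severe array. At 1.5-fold 33 were lower (42 with bounds) and at 3-fold 9 (11 with bounds). The liver list's median turned from 1.56 to −0.10 with the floor at the lowest summed signal, which lets 5 members be measured. For the other changes the cause was not tested. Of the other values of counts, medians, arm pairs, standing apart and correlations with base composition, 96 stayed within the margins set.

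Signal over background limits the dim miRNAs, whose differences rest on readings near the floor. The 75th percentile over all rat miRNAs was 0.766, −0.739, 8.26 and 0.336 units on the 4 arrays, at background, and was not run as a scale. No array was left out, since each group had 1. No paired analysis was possible because each group had 1 array.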
